A study of Mus musculus with 18 samples.

Results

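Hepatic fatty acid uptake and binding was followed through 10 genes, chosen by name as known steps of the route. These members and the other gene lists used below were chosen with earlier results of these data known. Their counts and medians beside those of all tested genes are therefore descriptions and not independent tests. Of the 10 genes, 2 act at the capillary wall and on circulating lipoproteins (Lpl and Vldlr), 4 encode proteins that take up or activate fatty acids (Cd36, Slc27a1, Slc27a2 and Slc27a4), and 4 encode proteins that bind fatty acids or their coenzyme A esters in the cell (Fabp1, Fabp2, Fabp4 and Dbi). All 10 were among the 19057 genes of the table, and all 10 passed the filter on low values, which 10204 genes passed.

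Liver mRNA of ICR male mice was sequenced at 10 weeks of age in 6 groups of 3 libraries. Con mice had the regular diet and saline. HS mice had a high-fat diet from 3 to 10 weeks of age and one dose of streptozotocin (STZ), a toxin of the insulin-producing pancreatic cells, at 5 weeks. A10-FMT and Con-FMT mice had the same diet and STZ and were then dosed by mouth, until 7 weeks of age, with small intestinal content pooled from donor mice. The A10-FMT donors had been given alginate oligosaccharide (AOS), a fragment of a seaweed polysaccharide, at 10 mg/kg, and the Con-FMT donors water. The labels name 2 more groups, A10 (AOS, 10 mg/kg) and HS+A10 (the diet and STZ together with that AOS dose), whose dosing schedule is not given in the sources used here. HS, HS+A10, A10-FMT and Con-FMT thus share the diet and STZ, so the effects of the diet and of STZ cannot be told apart, and because donor content was pooled, each kind of transplant is 1 source. Nothing in the labels ties a library to an animal, and p-values measure the spread between these libraries, which may be technical in part.

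Lipoprotein lipase, made by Lpl, frees fatty acids from the triglycerides of circulating lipoproteins, and the VLDL receptor, made by Vldlr, binds the particles themselves. CD36 and the fatty acid transport proteins of the Slc27a family carry fatty acids across the membrane or trap them as coenzyme A esters. Inside the hepatocyte, FABP1 is the main soluble carrier of fatty acids, and DBI, also called acyl-CoA-binding protein, holds the coenzyme A esters. FABP2 is best known from the intestinal epithelium and FABP4 from adipocytes, macrophages and endothelium. Several genes of this route, Fabp1 and Cd36 among them, are targets of PPAR alpha, the receptor that switches on fatty acid oxidation in the fasting liver.

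PPAR alpha binds, with its partner RXR, a repeat of the letters AGGTCA spaced by 1 base, AGGTCANAGGTCA. The 250 bases before each RefSeq start (GRCm38.p6) were searched on both strands for this motif, with at most 1 mismatch in its 12 fixed letters. It was found before 0.484% of 32851 starts, in 0.566% of 27025 genes and in 1 of the 8 members with an entry, Fabp1. The 3 sequences that follow are shown 5′ to 3′ on the gene's strand because they belong to the member with the match, to its relative Fabp2, which changed more between Con and HS, and to Cd36, the member with the largest change. Capitals mark the match, which read in the motif's direction on the other strand and lay 67 to 55 bases before the start. The Fabp1 stretch, which stops where an annotated exon of the gene begins, is chr6:71199629-71199826 (+), that of Fabp2 chr3:122894822-122895071 (+), and that of Cd36 chr5:17835897-17836146 (−), before one of its annotated starts. No capitals means only that these letters were not found in that window.
Fabp1: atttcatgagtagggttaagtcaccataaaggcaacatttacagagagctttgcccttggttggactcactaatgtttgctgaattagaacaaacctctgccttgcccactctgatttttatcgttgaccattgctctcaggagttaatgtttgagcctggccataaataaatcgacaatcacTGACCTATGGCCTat
Fabp2: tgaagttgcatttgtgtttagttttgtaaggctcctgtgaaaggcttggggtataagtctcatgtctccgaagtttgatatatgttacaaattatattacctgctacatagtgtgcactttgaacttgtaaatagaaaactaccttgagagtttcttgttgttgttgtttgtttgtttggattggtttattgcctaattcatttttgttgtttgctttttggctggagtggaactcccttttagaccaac
Cd36: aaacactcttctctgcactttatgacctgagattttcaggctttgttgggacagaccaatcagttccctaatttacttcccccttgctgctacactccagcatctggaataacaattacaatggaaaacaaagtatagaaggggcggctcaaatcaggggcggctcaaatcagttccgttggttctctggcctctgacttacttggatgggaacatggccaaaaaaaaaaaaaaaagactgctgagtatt

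Values are RPKM, the reads of a gene per kilobase of its length, scaled to the reads of the library, so levels can be set side by side between genes. Over the 18 libraries 3 of the 4 binding proteins and Slc27a2 were the most abundant members. The mean level of Fabp1 lay above 99.9% of all genes, that of Dbi above 99.5%, that of Slc27a2 above 99.2% and that of Fabp2 above 96.1%. Fabp4, Slc27a4, Cd36 and Lpl followed, above between 72.2% and 81.8% of genes, and Slc27a1 and Vldlr lay near the middle of the table, above 53.8% and 48.9%. Together the 10 genes took between 0.812% and 2.16% of the RPKM summed over a library.

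The summed RPKM of the libraries lay between 692818 and 806937, and the steps between low values put their relative depth between 0.963 and 1.04, while the number of reads is unknown. The liver label was checked against 7 hepatocyte markers (albumin, Apoa1 and others), which summed to between 32782 and 55217 RPKM. Con replicate 3 lay between the other Con libraries for 62.1% of 6386 genes, against 17.3% to 49.6% for the other libraries within their groups. Con-FMT replicate 3 held 12749 RPKM of 8 pancreatic acinar markers, against at most 3.28 RPKM in any other library. Whether Con replicate 3 is independent of the other Con libraries was not tested. If it is not, Con has fewer than 3 independent libraries, and its SDs and the p-values of comparisons with it are too small. HS replicate 2 held the highest sums of 5 red blood cell markers (10039 RPKM, others 875 to 5573) and of 7 stellate cell markers (179 RPKM, others 73.7 to 129). Values without these libraries are given beside the calls that they change and beside some others, and the orders that they change are named.

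**Figure D1:**
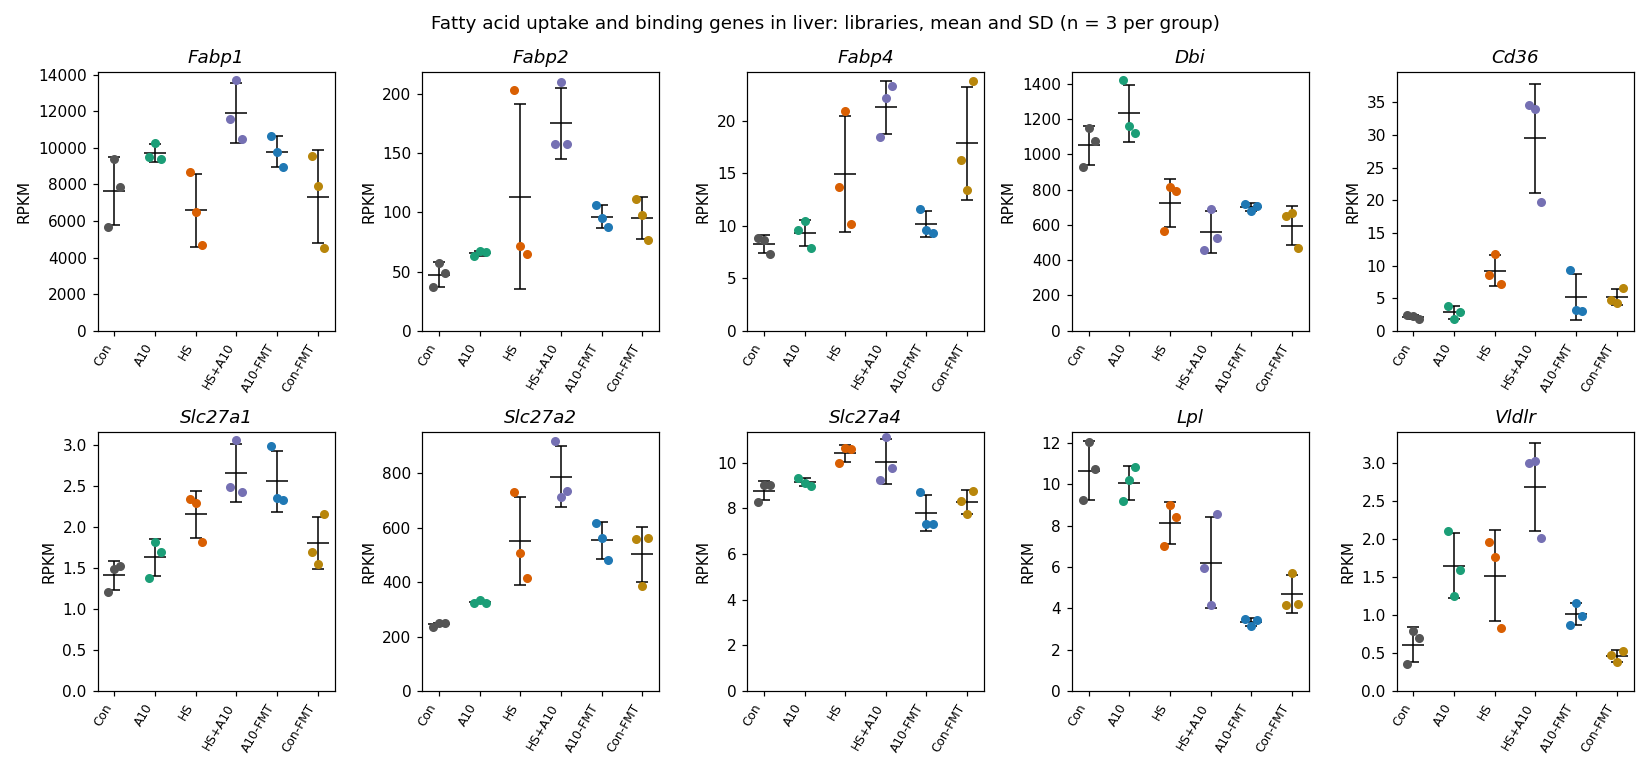
RPKM (linear axes from 0) of the 10 genes in liver, by group. Points are the 3 libraries of a group, drawn as replicates 1 to 3 from left to right, and the black marks give the mean ± SD. The Cd36 libraries of HS+A10 lie between 19.8 and 34.6, above those of all other groups, and the Lpl and Dbi libraries of the 4 groups with the diet and STZ lie below all Con and A10 libraries.

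The first comparison asked what the high-fat diet and STZ changed in the liver (HS against Con). Of the 4 uptake and activation genes 3 were higher in HS, with Cd36 up 4.22-fold and Slc27a2 up 2.25-fold in mean RPKM, while Dbi fell to 0.689 of its Con level. Of the 10 members, 6 rose (Cd36, Slc27a1, Slc27a2, Fabp2, Fabp4 and Vldlr), 1 fell (Dbi) and 3 were not called (Slc27a4, Fabp1 and Lpl), at an adjusted p under 0.05 by limma on log2(RPKM + 1). The background was 15.9% of all tested genes called higher and 1.87% called lower. The median change of the members was 0.50 on the log2 scale and that of all tested genes 0.14. With the library medians set equal, 398 genes came out higher and 486 lower in place of 1618 and 191, and 3 members were still called, Cd36 and Slc27a2 as higher and Dbi as lower.

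Cd36, the scavenger receptor that takes up long-chain fatty acids, read 2.45, 2.22 and 1.85 RPKM in Con and 8.48, 11.84 and 7.22 RPKM in HS. Every HS library lay more than 4 RPKM above the highest Con library. The log2 change was 1.66 ± 0.32 (SE), with an adjusted p of 0.00380. Slc27a2, the very-long-chain acyl-CoA synthetase and transporter of the liver, read 236.9, 248.3 and 248.1 RPKM in Con and 730.05, 507 and 415 RPKM in HS. The Con libraries lay within a narrow range and the HS libraries were spread widely above it. Its log2 change was 1.13 ± 0.18 (adjusted p = 0.00123). Both genes were called without each of the 6 libraries in turn, at 1.59 (adjusted p = 0.0191) for Cd36 and 1.14 (adjusted p = 0.00647) for Slc27a2 without Con replicate 3. Without HS replicate 2, which had the highest Cd36 level of HS, Cd36 stood at 1.48 (adjusted p = 0.0192).

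The other 5 calls of this comparison depended on single libraries. Fabp2 read 36.6, 57.4 and 48.4 RPKM in Con and 203, 71.4 and 65.3 RPKM in HS, so HS replicate 1 stood far above the other HS libraries. Its log2 change of 1.06 ± 0.31 (adjusted p = 0.0302) became 0.54 (adjusted p = 0.0593) without that library, 0.89 (0.119) without Con replicate 1 and 1.09 (0.0700) without Con replicate 3. Enterocyte markers, whose cells are the textbook source of Fabp2, summed to at most 0.69 RPKM in any library, and Sis, Cdx1 and Cdx2 were listed at 0 in all 18.

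Fabp4 read 8.84, 8.64 and 7.31 RPKM in Con and 13.66, 20.91 and 10.16 RPKM in HS. All HS libraries lay above all Con libraries, HS replicate 3 by the least. It changed by 0.73 ± 0.21 on the log2 scale (adjusted p = 0.0308), and by 0.47 (adjusted p = 0.128) without HS replicate 2. Without Con replicate 1, 2 or 3 or HS replicate 1 it lay between 0.65 and 0.77, with adjusted p from 0.0505 to 0.09997. Endothelial cells carry FABP4 and CD36, and 8 endothelial markers summed to between 52.3 and 60.3 RPKM in Con and between 63.3 and 69.2 RPKM in HS. Of the 8, 2 were called higher and 0 lower, where 15.9% of all tested genes were called higher. Their median log2 change was 0.21, against 0.14 for all tested genes. Stellate markers summed to between 73.7 and 84.9 RPKM in Con and 114 and 179 RPKM in HS, and red blood cell markers to between 1256 and 1971 RPKM and 2885 and 10039 RPKM. Most of the first sum was Dcn and most of the second Hba-a1, while the red blood cell marker Alas2 overlapped between the groups. Of 7 stellate markers 2 were called higher and 0 lower, and of 4 tested red blood cell markers 1 and 0. The HS library highest for Fabp4 and Cd36, replicate 2, was the highest for the stellate and red blood cell sums and the lowest of HS for the endothelial sum. The part of these cells in the Fabp4 and Cd36 differences was not tested.

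Vldlr was low in Con, at 0.35, 0.79 and 0.69 RPKM, and read 1.95, 1.76 and 0.83 RPKM in HS. HS replicate 3 lay just above the highest Con library. Its log2 change was 0.62 ± 0.18 (adjusted p = 0.0264), and between 0.49 and 0.66 with adjusted p from 0.0550 to 0.114 without Con replicate 1 or 3 or HS replicate 1 or 2.

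Slc27a1, the transporter known mainly from muscle and fat, read 1.21, 1.49 and 1.52 RPKM in Con and 2.34, 2.29 and 1.82 RPKM in HS. The groups did not overlap. Its log2 change was 0.39 ± 0.11 (adjusted p = 0.0299), and between 0.33 and 0.42 with adjusted p from 0.0555 to 0.116 without Con replicate 1 or 3 or HS replicate 1 or 2. Dbi read 928, 1149 and 1074 RPKM in Con and 564, 816 and 790.2 RPKM in HS. All HS libraries lay below all Con libraries, HS replicate 1 by the most. The change was -0.55 ± 0.18 on the log2 scale (adjusted p = 0.0420), and between -0.64 and -0.38 with adjusted p from 0.0531 to 0.146 without Con replicate 1, 2 or 3 or HS replicate 1 or 3. How reads shared with processed copies of Dbi in the genome were counted is not given in the sources used here.

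The 3 members that were not called covered the lipase, the main carrier and a transporter. Fabp1 was the most abundant member, at 5688, 9398 and 7885 RPKM in Con and 8659, 6477 and 4666 RPKM in HS. The groups overlapped, and the log2 change was -0.23 with a 95% interval from -0.78 to 0.32. Slc27a4 lay between 8.29 and 9.02 RPKM in Con and between 9.99 and 10.66 RPKM in HS, with a log2 change of 0.22 (adjusted p = 0.0584). Lpl lay between 9.22 and 12.05 RPKM in Con and between 7.02 and 8.99 RPKM in HS, without overlap, with a log2 change of -0.35 (adjusted p = 0.164).

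A list of 30 other genes of the route held its other transporters, acyl-CoA synthetases, binding proteins and regulators of lipoprotein lipase. Of the 25 that were tested, 6 rose and 3 fell in HS, with a median log2 change of 0.22. Apoc2, the activator of lipoprotein lipase, rose from 341 ± 35.2 RPKM (SD, n = 3) to 811 ± 324 RPKM, and Angptl4, an inhibitor of the lipase, from 21.2 to 50.8 RPKM. Scp2, a lipid carrier of the cytosol and peroxisome, rose by 0.43 on the log2 scale. Angptl8, which acts against the lipase, fell, with a log2 change of -1.42, as did the fatty acid binding protein Fabp5, with -1.53. Of 21 known PPAR alpha targets, all tested, 16 rose and 0 fell (18 had an unadjusted p under 0.05), with a median log2 change of 0.82. Without Con replicate 3 the wider list gave 4 higher and 2 lower and the PPAR alpha targets 9 and 0, and without HS replicate 2 the counts were 4 and 3, and 11 and 0. Cyp4a14 and Cyp4a10, the fatty acid omega-hydroxylases, rose by 5.41 and 5.20 on the log2 scale.

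**Figure D2:**
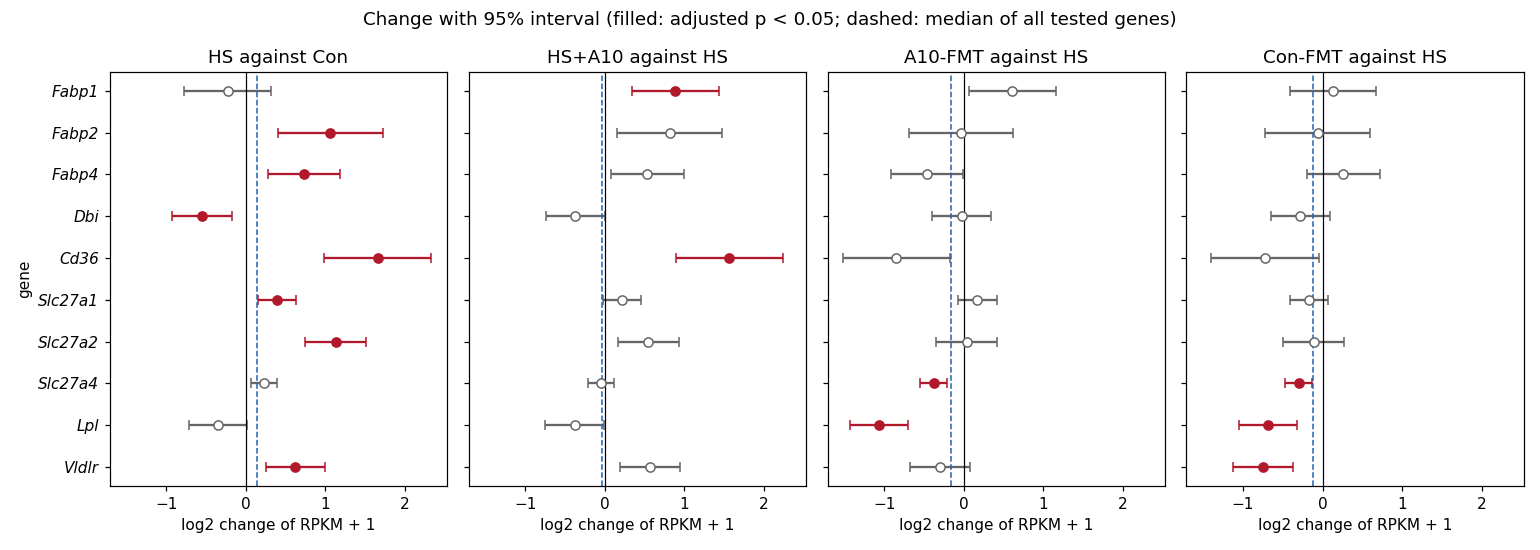
Log2 change of RPKM + 1 (horizontal axis) of the 10 genes (vertical axis) in 4 comparisons, from a limma fit of all 18 libraries. Points are estimates with 95% intervals, filled where the adjusted p was under 0.05, and the dashed line is the median of all tested genes. Cd36 lies at 1.66 for HS against Con and at 1.57 for HS+A10 against HS, and Lpl at -1.06 and -0.69 in the 2 comparisons of transplanted groups with HS.

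The next question was how the transplanted groups differed from HS, which had the same diet and STZ. Lpl and Slc27a4 were lower in both transplanted groups and Vldlr in Con-FMT, and no member was called higher. In A10-FMT against HS, 0 members were called higher and 2 lower (Lpl and Slc27a4), where 2.09% of all tested genes were called higher and 21% lower. In Con-FMT against HS, 0 were higher and 3 lower (Lpl, Slc27a4 and Vldlr), where 4.61% of all tested genes were higher and 19% lower. At an unadjusted p under 0.05 there were 5 members in the first comparison and 4 in the second. The median change of the members was -0.17 and -0.23 on the log2 scale, and that of all tested genes -0.16 and -0.12. Equal library medians gave 639 genes higher and 516 lower in place of 213 and 2145 for A10-FMT, and 858 and 1240 in place of 470 and 1943 for Con-FMT, and the counts of members called stayed at 2 and 3. Both comparisons use the same HS libraries and are therefore not independent.

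Lpl read 7.02, 8.99 and 8.41 RPKM in HS, 3.48, 3.14 and 3.44 RPKM in A10-FMT and 4.15, 5.73 and 4.20 RPKM in Con-FMT. The 3 groups did not overlap, and A10-FMT held the lowest libraries of the series. Its log2 change was -1.06 ± 0.17 (adjusted p = 0.00128) in A10-FMT and -0.69 ± 0.17 (adjusted p = 0.0106) in Con-FMT, and both were called under all 11 alternative settings. Macrophages, a known source of lipoprotein lipase, had a summed level of 8 markers between 46.2 and 58.7 RPKM in A10-FMT, 52.5 and 102 RPKM in Con-FMT and 68.4 and 115 RPKM in HS. In A10-FMT against HS, 5 of these 8 markers fell and 0 rose, and in Con-FMT against HS none was called by limma (2 at an unadjusted p under 0.05). Of 8 endothelial markers 4 fell in A10-FMT and 0 rose (6 at an unadjusted p under 0.05), and their sum lay between 45.3 and 57.2 RPKM, below the 63.3 to 69.2 RPKM of HS. In Con-FMT 2 of them fell and 1 rose (6 at an unadjusted p under 0.05), and their sum, between 47.2 and 66.8 RPKM, overlapped HS. The part of these cells in the differences of Lpl, Cd36 and Fabp4 was not tested, and in bulk RNA fewer cells of a type and less RNA per cell cannot be told apart.

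Slc27a4, an acyl-CoA synthetase and transporter, read 9.99, 10.66 and 10.59 RPKM in HS, 8.73, 7.33 and 7.33 RPKM in A10-FMT and 8.32, 7.73 and 8.77 RPKM in Con-FMT. Both transplanted groups lay below HS and overlapped with each other. The log2 change was -0.38 ± 0.08 (adjusted p = 0.00453) in A10-FMT and -0.30 ± 0.08 (adjusted p = 0.0125) in Con-FMT. The latter was -0.26 (adjusted p = 0.0539) without Con-FMT replicate 2. With equal library medians the changes shrank to -0.21 in A10-FMT and -0.20 in Con-FMT, both still called. With only the compared groups in the fit, neither was called (adjusted p = 0.0570 and 0.0680). Vldlr read 0.47, 0.38 and 0.53 RPKM in Con-FMT, below every HS library, and 0.87, 1.16 and 0.99 RPKM in A10-FMT, which overlapped HS. Without Con-FMT replicate 3, the library with pancreatic markers, the changes in Con-FMT were -0.34 for Slc27a4 (adjusted p = 0.0149), -0.63 for Lpl (0.0347) and -0.79 for Vldlr (0.0123). With all libraries the log2 change of Vldlr against HS was -0.75 ± 0.18 (adjusted p = 0.00702) in Con-FMT and -0.30 (adjusted p = 0.225) in A10-FMT. The Con-FMT change was not called with only the compared groups in the fit (adjusted p = 0.0602). The A10-FMT change was -0.51 (adjusted p = 0.0457) without HS replicate 3.

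Cd36, which rose most between Con and HS, read 9.28, 3.16 and 3.02 RPKM in A10-FMT and 4.66, 4.23 and 6.49 RPKM in Con-FMT. A10-FMT replicate 1 lay among the HS libraries, and the other 5 transplanted libraries lay between Con and HS. The log2 change against HS was -0.85 (95% interval -1.52 to -0.17, adjusted p = 0.0634) in A10-FMT and -0.72 (-1.40 to -0.05, adjusted p = 0.110) in Con-FMT. Without A10-FMT replicate 1 the former was -1.29 (adjusted p = 0.00455), and without Con-FMT replicate 3 the latter was -0.88 (adjusted p = 0.0889). Slc27a2 read 615.8, 563 and 482 RPKM in A10-FMT and 559, 386 and 561 RPKM in Con-FMT, within the range of HS except for Con-FMT replicate 2. Its log2 change against HS was 0.04 (-0.34 to 0.42) and -0.11 (-0.50 to 0.27).

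The binding proteins were not called in either transplanted group against HS. Fabp2 lay between 76.3 and 111.5 RPKM in the 6 transplanted libraries, and Dbi between 469 and 719.8 RPKM. Fabp1 read 10660.45, 9775 and 8962 RPKM in A10-FMT, above all HS libraries, with a log2 change of 0.61 (95% interval 0.07 to 1.16, adjusted p = 0.0932). Without HS replicate 1 it was 0.83 (adjusted p = 0.0377). Fabp4 had a log2 change of -0.46 (adjusted p = 0.123) in A10-FMT, which was -0.69 (adjusted p = 0.0389) without HS replicate 3, and of 0.26 (adjusted p = 0.400) in Con-FMT, which was 0.045 (adjusted p = 0.899) without Con-FMT replicate 3.

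Among the 25 tested genes of the wider list, 0 were higher and 3 lower in A10-FMT (Apoc2, Scp2 and the Golgi acyl-CoA-binding protein Acbd3), and 4 had an unadjusted p under 0.05. In Con-FMT 1 was higher (Angptl4) and 3 were lower (Apoc2, the brain-type binding protein Fabp7 and the peroxisomal Acbd5). Apoc2 read 811 ± 324 RPKM in HS, 471 ± 23.9 RPKM in A10-FMT and 440 ± 66.0 RPKM in Con-FMT (SD, n = 3). Of the 21 PPAR alpha targets, 8 fell in A10-FMT and 9 in Con-FMT, 0 rose in either, and 11 had an unadjusted p under 0.05 in each, with median log2 changes of -0.45 and -0.46. Without HS replicate 2 the counts were 3 and 5, and without Con-FMT replicate 3 the count in Con-FMT was 7. In the wider list, Con-FMT had 0 higher and 2 lower without HS replicate 2. Cyp4a14 fell in both, with log2 changes of -3.17 and -3.03, and so did Plin2, the lipid droplet coat protein, with -0.92 and -1.02.

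The direct comparison of the transplanted groups asked whether the source of the transplant mattered. In A10-FMT against Con-FMT, Slc27a1 was higher and Fabp4 lower, and the other 8 members were not called. Of all tested genes, 6.72% were called higher and 12% lower. With equal library medians 1302 genes were higher and 958 lower, in place of 686 and 1228, and Vldlr was called as well (log2 change 0.50, adjusted p = 0.0470). Fabp4 read 11.57, 9.57 and 9.29 RPKM in A10-FMT and 16.28, 13.42 and 23.78 RPKM in Con-FMT. The groups did not overlap, and Con-FMT replicate 3 was the highest library of the series. The log2 change was -0.73 ± 0.21 (adjusted p = 0.0281), and -0.51 (adjusted p = 0.119) without that library. It was between -0.77 and -0.67, with adjusted p from 0.0500006 to 0.0866, without A10-FMT replicate 2 or 3 or Con-FMT replicate 1.

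Con-FMT replicate 3, the library with pancreatic markers, also held adipocyte transcripts. Its Adipoq level (adiponectin, made by adipocytes) was 2.44 RPKM, against at most 0.11 RPKM in the other 17 libraries, and its Cfd level (adipsin) was 11.71 RPKM, against at most 2.61 RPKM. Leptin was at most 0.02 RPKM in any library. The sum of 8 adipocyte markers lay between 1887 and 2739 RPKM in Con-FMT and between 3318 and 4045 RPKM in A10-FMT. Nearly all of it was Car3, which read at least 1304 RPKM in every library, so the sum follows Car3. Of the 3 adipocyte markers that passed the filter, 2 were called, Car3 and Adrb3, both as higher in A10-FMT. Adrb3, like Car3, was present in every library, at 3.76 RPKM or more. Cfd, which was not called, read 0, 0.16 and 0 RPKM in A10-FMT and 0, 0.08 and 11.71 RPKM in Con-FMT. The part of these cells in the Fabp4 difference was not tested, beyond its size without that library.

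Slc27a1 read 2.98, 2.35 and 2.33 RPKM in A10-FMT and 1.69, 1.55 and 2.16 RPKM in Con-FMT. The groups did not overlap but came within 0.2 RPKM of each other. The log2 change was 0.34 ± 0.11 (adjusted p = 0.0443), and between 0.26 and 0.39, with adjusted p from 0.0515 to 0.159, without any A10-FMT library or without Con-FMT replicate 1 or 2. It was 0.44 (adjusted p = 0.0205) without Con-FMT replicate 3. Cd36 differed by -0.12 (95% interval -0.80 to 0.55) and Fabp2 by 0.03 (-0.63 to 0.69) on the log2 scale. Vldlr was higher in all A10-FMT libraries, with a change of 0.46 (adjusted p = 0.0842), and with a pseudocount of 0.1 in place of 1, which weighs low values more, the change was 0.98 (adjusted p = 0.0366).

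Of the wider list, A10-FMT had 2 genes higher and 3 lower, and 1 and 1 without Con-FMT replicate 3. Acbd5 read 82.8 against 58.7 RPKM and the endothelial lipase Lipg 3.45 against 1.28 RPKM. Caveolin 1 (Cav1) read 1.23 against 2.70 RPKM, Acbd3 6.13 against 8.11 RPKM and Angptl4 46.7 against 79.5 RPKM. None of the 21 PPAR alpha targets was called by limma, 1 had an unadjusted p under 0.05, and their median change was 0.03.

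**Figure D3:**
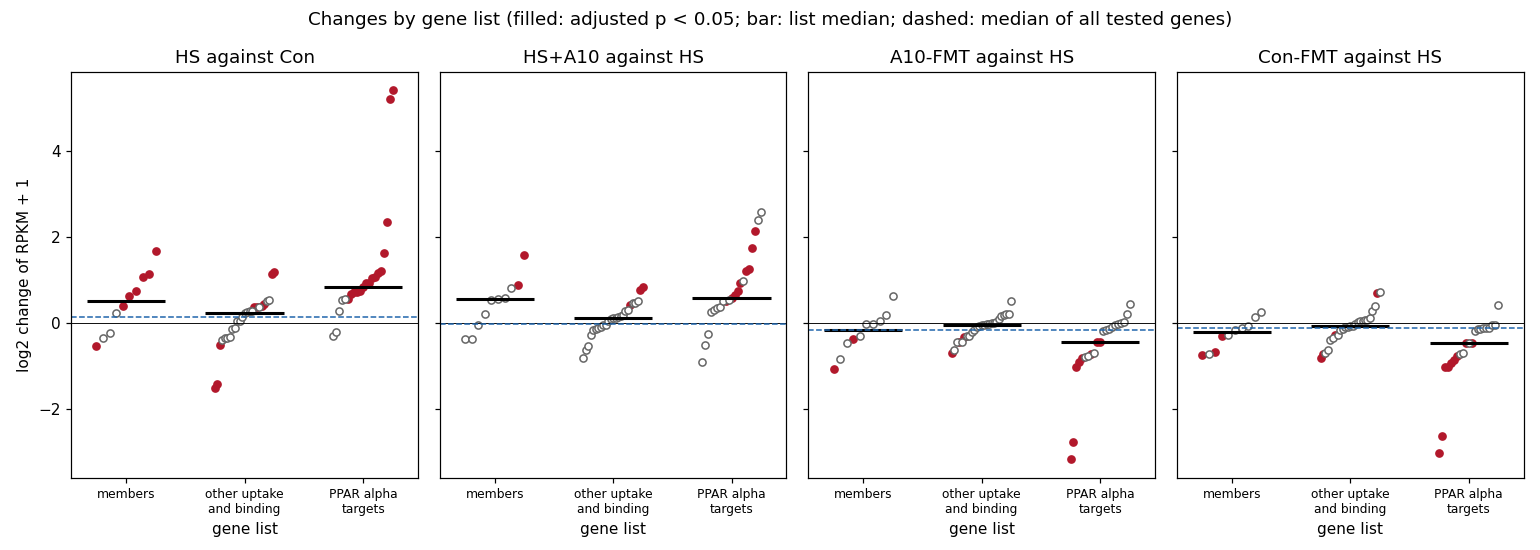
Log2 change of RPKM + 1 (vertical axis) of the 10 members, of the 25 tested genes of the wider uptake and binding list and of 21 PPAR alpha targets (horizontal axis), in 4 comparisons. Each point is a gene, filled where the adjusted p was under 0.05, the bar is the median of the list and the dashed line the median of all tested genes. PPAR alpha targets have a median of 0.82 in HS against Con, of 0.57 in HS+A10 against HS, and of -0.45 and -0.46 in the transplanted groups against HS.

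AOS was also given with the high-fat diet and STZ (HS+A10 against HS). Cd36 and Fabp1 were higher in HS+A10, Cd36 by 3.21-fold and Fabp1 by 1.81-fold in mean RPKM, and 0 members were lower. Of all tested genes, 2.95% were called higher and 4.37% lower. At an unadjusted p under 0.05 there were 7 members, and the median change was 0.54 on the log2 scale, against -0.03 for all tested genes. After median scaling 579 genes were higher and 356 lower, in place of 301 and 446, and 4 members were called, Slc27a2 (0.59, adjusted p = 0.0439) and Vldlr (0.58, adjusted p = 0.0445) in addition.

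Cd36 read 34.64, 34.01 and 19.79 RPKM in HS+A10, against 8.48, 11.84 and 7.22 RPKM in HS. HS+A10 replicate 3 was well below the other HS+A10 libraries and still above every library of the other groups. The change was 1.57 ± 0.32 on the log2 scale (adjusted p = 0.0113), 1.42 (adjusted p = 0.0542) without HS replicate 3 and 1.43 (adjusted p = 0.0629) without HS+A10 replicate 1. Fabp1 read 11578, 13702 and 10474 RPKM in HS+A10, above all HS libraries. Its log2 change was 0.89 ± 0.26 (adjusted p = 0.0485), and between 0.66 and 0.98, with adjusted p from 0.0642 to 0.195, without HS replicate 2 or 3 or any HS+A10 library, so this call stood at the threshold. Without HS replicate 1 the Fabp1 change was 1.11 (adjusted p = 0.0158).

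Other members lay higher in HS+A10 without being called. Slc27a2 read 917.6, 713 and 734 RPKM, with a log2 change of 0.55 (adjusted p = 0.0752), and 0.77 (adjusted p = 0.00752) without HS replicate 1, the HS library with the highest value. Fabp2 read 158, 210.08 and 158 RPKM, with a change of 0.81 (adjusted p = 0.119), and 1.34 (adjusted p = 0.000972) without HS replicate 1. Vldlr read 3.00, 3.02 and 2.01 RPKM, with a change of 0.57 (adjusted p = 0.0621), 0.70 (adjusted p = 0.0276) without HS replicate 1 and 0.70 (adjusted p = 0.0432) without HS+A10 replicate 3. None of the 3 was called with all libraries in the fit.

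Fabp4 read 18.45, 22.15 and 23.27 RPKM in HS+A10, which overlapped HS, with a log2 change of 0.54 (adjusted p = 0.136), and 0.79 (adjusted p = 0.04995) without HS replicate 2. Lpl read 5.94, 4.15 and 8.55 RPKM, with a change of -0.38 (adjusted p = 0.188), and -0.61 (adjusted p = 0.0330) without HS+A10 replicate 3. Dbi read 459, 691 and 528 RPKM, with a change of -0.37 (adjusted p = 0.202). Endothelial cells carry CD36 and FABP4, and the sum of 8 endothelial markers lay between 78.3 and 96.0 RPKM in HS+A10 and between 63.3 and 69.2 RPKM in HS. Of these 8 markers, 1 rose and 0 fell, and 7 had an unadjusted p under 0.05, with a median log2 change of 0.39. Of the adipocyte markers, Cfd read 2.61, 2.46 and 1.33 RPKM in HS+A10 and 0.16, 0.08 and 0 RPKM in HS, while Adipoq was at most 0.11 RPKM in both. The 3 tested adipocyte markers were Cfd, Car3 and Adrb3, of which 1 rose and 0 fell (2 at an unadjusted p under 0.05). Car3, high in every library, read 2712, 3118.5 and 2300 RPKM in HS+A10 and 1304, 1674 and 1436 RPKM in HS. Adrb3 read 7.11, 6.79 and 4.47 RPKM in HS+A10 and 9.08, 6.07 and 4.81 RPKM in HS. Plin1, Lep and Retn were at most 0.15 RPKM in both groups. The median log2 change of the 3 tested markers was 0.88. The part of both cell types in the Cd36 and Fabp4 values was not tested.

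**Figure D4:**
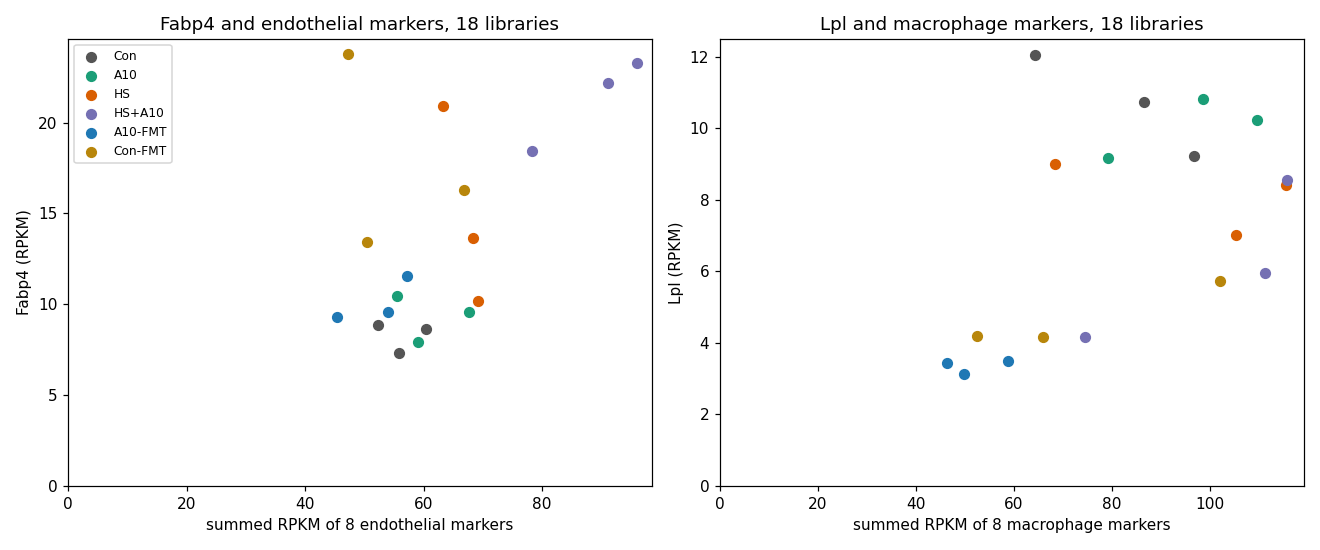
Left, Fabp4 (RPKM) against the summed RPKM of 8 endothelial markers, and right, Lpl (RPKM) against the summed RPKM of 8 macrophage markers. Each point is one of 18 libraries, coloured by group, and all axes start at 0. The HS+A10 libraries have the highest endothelial sums (78.3 to 96.0), and Con-FMT replicate 3 has the highest Fabp4 (23.78) at an endothelial sum of 47.2. The A10-FMT libraries have the lowest Lpl (3.14 to 3.48), at macrophage sums of 46.2 to 58.7.

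In the wider list 3 genes rose in HS+A10 against HS and 0 fell, while 8 had an unadjusted p under 0.05. They were Acbd5, the lipoprotein lipase anchor Gpihbp1, at 20.8 against 11.4 RPKM, and the acyl-CoA synthetase Acsl1, at 599 against 364 RPKM. Of the 21 PPAR alpha targets, 9 rose and 0 fell, 17 had an unadjusted p under 0.05, and they had a median log2 change of 0.57. Without HS replicate 2 the wider list gave 0 calls and the PPAR alpha targets 2, both as higher. Acot1, an acyl-CoA thioesterase, rose by 1.73 on the log2 scale.

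AOS without the diet and STZ (A10 against Con) gave 0 called members by limma, in a comparison where 0.049% of all tested genes were called higher and 0.0196% lower, and 2 members had an unadjusted p under 0.05. Vldlr read 2.10, 1.25 and 1.59 RPKM in A10, all above Con, with a log2 change of 0.72 (95% interval 0.34 to 1.09, adjusted p = 0.131), and 0.76 (adjusted p = 0.357) without Con replicate 3. Slc27a2 read 325, 333 and 324.5 RPKM, also above all Con libraries, with a change of 0.42 (0.04 to 0.80, adjusted p = 0.321), and 0.43 (adjusted p = 0.506) without Con replicate 3. Cd36 read 3.79, 1.87 and 2.82 RPKM, which overlapped Con, with a change of 0.24 (-0.43 to 0.92).

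Whether AOS acted differently with and without the diet and STZ was tested as the difference of the 2 AOS effects. No member was called by limma, 2 had an unadjusted p under 0.05, and 0.0098% of all tested genes were called higher and 0% lower. The difference for Cd36 was 1.32 ± 0.45 on the log2 scale (95% interval 0.37 to 2.27, adjusted p = 0.231), and for Dbi -0.60 ± 0.25 (-1.13 to -0.07, adjusted p = 0.327). For Fabp1 it was 0.52 (-0.26 to 1.29) and for Vldlr -0.15 (-0.68 to 0.38).

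The last comparison set the 4 groups with the diet and STZ against the 2 groups without them, which uses all 18 libraries and has the narrowest intervals. It shares its libraries with the comparisons above. Of the 10 members, 5 were higher (Cd36, Slc27a1, Slc27a2, Fabp2 and Fabp4) and 2 lower (Lpl and Dbi), where 20.3% of all tested genes were called higher and 12.1% lower. The split over all tested genes was 1612 higher and 1880 lower after median scaling, in place of 2075 and 1235. These 7 calls of members held under all 22 alternative settings, each of the 18 libraries left out in turn among them.

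For Slc27a2, Lpl and Dbi the libraries of the 2 sets of groups did not overlap. The share of all tested genes without such overlap was not computed, so whether this is unusual is not known. Slc27a2 lay between 237 and 333 RPKM in the 6 Con and A10 libraries and between 386 and 918 RPKM in the other 12, with a log2 change of 1.04 ± 0.11 (adjusted p = 9.68e-06). Lpl lay between 9.17 and 12.05 RPKM in Con and A10 and between 3.14 and 8.99 RPKM in the other groups, with a change of -0.85 ± 0.11 (adjusted p = 3.66e-05). Dbi lay between 928 and 1418 RPKM and between 459 and 816 RPKM, with a change of -0.83 ± 0.11 (adjusted p = 4.68e-05). In contrast to these, the sets overlapped for Cd36 (1.54 ± 0.19, adjusted p = 3.91e-05), Slc27a1 (0.38 ± 0.07, adjusted p = 0.000780), Fabp2 (1.00 ± 0.19, adjusted p = 0.00104) and Fabp4 (0.74 ± 0.13, adjusted p = 0.000647). The Fabp4 change was 0.68 (adjusted p = 0.000679) without Con-FMT replicate 3. Fabp1 (-0.01, 95% interval -0.34 to 0.33), Slc27a4 (0.01, -0.09 to 0.12) and Vldlr (0.14, -0.09 to 0.37) were not called.

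In the wider list 8 of 25 tested genes were higher and 6 lower with the diet and STZ. Apoc2, Scp2 and Angptl4 were higher, by 0.83, 0.30 and 0.90 on the log2 scale. Angptl8 and the synthetase Acsl5 were lower, with log2 changes of -1.44 and -0.66. Angptl4 was at 21.2 RPKM in Con and at 45.5 RPKM or more in each of the other groups. Of the PPAR alpha targets, 15 rose and 1 fell.

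In the order of the group means, Cd36 ran from HS+A10 (29.5 ± 8.40 RPKM, SD, n = 3) through HS (9.18 ± 2.39), A10-FMT (5.15 ± 3.57) and Con-FMT (5.13 ± 1.20) to A10 (2.83 ± 0.96) and Con (2.17 ± 0.30). HS overlapped A10-FMT, A10-FMT overlapped Con-FMT, and A10 overlapped Con. Slc27a2 had the order HS+A10 (788 ± 113), A10-FMT (554 ± 67.4), HS (551 ± 162), Con-FMT (502 ± 100), A10 (328 ± 4.72) and Con (244 ± 6.53). Its middle groups overlapped with each other, while HS+A10, A10 and Con stood apart from their neighbours except that the HS+A10 range overlapped that of HS.

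Fabp2 had the order HS+A10 (175 ± 30.1), HS (113 ± 78.1), A10-FMT (96.3 ± 9.65), Con-FMT (95.2 ± 17.8), A10 (65.7 ± 2.12) and Con (47.5 ± 10.4), with overlap among the first 4 in each neighbouring pair. Fabp4 ran from HS+A10 (21.3 ± 2.52) through Con-FMT (17.8 ± 5.35), HS (14.9 ± 5.48), A10-FMT (10.1 ± 1.24) and A10 (9.31 ± 1.28) to Con (8.26 ± 0.83), and each neighbouring pair overlapped. Lpl was highest in Con (10.7 ± 1.42) and A10 (10.1 ± 0.84), followed by HS (8.14 ± 1.01), HS+A10 (6.21 ± 2.21), Con-FMT (4.69 ± 0.90) and A10-FMT (3.35 ± 0.19). A10 did not overlap HS, nor Con-FMT A10-FMT. Dbi also had its highest levels in A10 (1231 ± 162) and Con (1050.3 ± 112), followed by HS (723 ± 138), A10-FMT (702 ± 21.96), Con-FMT (595 ± 110) and HS+A10 (559 ± 119). Con did not overlap HS, nor A10-FMT Con-FMT.

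For Vldlr the order was HS+A10 (2.68 ± 0.58), A10 (1.65 ± 0.43), HS (1.51 ± 0.60), A10-FMT (1.01 ± 0.15), Con (0.61 ± 0.23) and Con-FMT (0.46 ± 0.08), and the neighbours A10-FMT and Con did not overlap. Fabp1 was highest in HS+A10 (11918 ± 1640.7) and lowest in HS (6601 ± 1999.5), with A10-FMT (9799 ± 849), A10 (9720.3 ± 486), Con (7657 ± 1865) and Con-FMT (7339.6 ± 2552) between them. Slc27a1 ran from 2.65 ± 0.35 in HS+A10 through 2.55 ± 0.37 in A10-FMT, 2.15 ± 0.29 in HS, 1.80 ± 0.32 in Con-FMT and 1.63 ± 0.22 in A10 to 1.41 ± 0.17 in Con. The group means of Slc27a4 lay close together, from 10.4 ± 0.37 in HS, 10.04 ± 0.97 in HS+A10, 9.15 ± 0.17 in A10, 8.77 ± 0.42 in Con and 8.27 ± 0.52 in Con-FMT to 7.80 ± 0.81 in A10-FMT. For Fabp1, Slc27a1 and Slc27a4 each group overlapped its neighbours in the order.

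The place of Con-FMT in 4 of these orders rested on replicate 3. Without it, its mean was 14.85 RPKM for Fabp4, just below HS, 8738 RPKM for Fabp1, above Con, 105 RPKM for Fabp2, above A10-FMT, and 1.62 RPKM for Slc27a1, just below A10. Leaving out Con replicate 3 changed no order of the group means. Without HS replicate 2, the HS mean of Slc27a2 lay above that of A10-FMT, and the HS mean of Dbi lay below that of A10-FMT.

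Some members varied together over the 18 libraries, which share the differences between the groups. Slc27a2 and Fabp2 had a Pearson r of 0.894 on the log2 scale, Slc27a1 and Slc27a2 of 0.851 and Cd36 and Slc27a2 of 0.825. Slc27a2 and Dbi had an r of -0.837. Taken as deviations from the group means these values were 0.582, 0.481, 0.347 and -0.623. Fabp1 and Fabp2 showed the opposite pattern, with an r of 0.558 over all libraries and of 0.793 within the groups, and for Cd36 and Fabp2 the values were 0.763 and 0.0075.

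The genes with the pattern most like each member over the 18 libraries were found by the same r among all tested genes. Slc27a2 was close to Cpt1a (r = 0.980) and Cd36 to Mogat1 (0.965) and Psap (0.961). Cpt1a had group means of 41.1 RPKM in Con, 95.7 in HS and 133 in HS+A10, and Mogat1 of 0.087, 1.28 and 4.22 RPKM. In A10, A10-FMT and Con-FMT Mogat1 averaged 0.18, 0.61 and 0.57 RPKM, below the filter of 1 RPKM. It thus passed the filter through HS+A10 and HS, the groups where Cd36 was also highest, which limits what its r with Cd36 can show. Dbi was closest to Slc25a1 (0.958) and H2-Q10 (0.950) and Fabp2 to Bdh1 (0.952) and Dhrs4 (0.951). Slc27a4 was closest to Ap2m1 (0.937) and Csnk1d (0.931), Vldlr to Grpel2 (0.927) and Rhoq (0.921), and Fabp4 to Tmed5 (0.921) and Pdhx (0.893). Lpl was closest to Praf2 (0.917) and Gstm3 (0.913), Slc27a1 to Gna12 (0.914) and Npc1 (0.907), and Fabp1 to Cd82 (0.883) and Lyrm4 (0.854), the lowest values among the members.

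In the genome (GRCm38, GENCODE M21) the members are dispersed protein-coding genes. Fabp2 (chr3:122895072-122899506) and Fabp4 (chr3:10204088-10208576) share chromosome 3 but lie far apart, as do Slc27a2 (chr2:126552407-126588243) and Slc27a4 (chr2:29802634-29817522) on chromosome 2. Slc27a1 (chr8:71568882-71587302) and Lpl (chr8:68880491-68907448) are both on chromosome 8. Cd36 (chr5:17781690-17888801) is the longest member, at 107.1 kb, and Fabp2 the shortest, at 4.435 kb. Fabp1 lies at chr6:71199827-71205023, Vldlr at chr19:27216484-27254231 and Dbi at chr1:120113280-120121078.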

How the data were processed

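The authors prepared 18 liver libraries from oligo(dT)-selected mRNA, aligned their reads and deposited 1 table of RPKM per gene with 2 decimals. Their methods name SOAPaligner and their processing notes Bowtie 0.12.2 and mm10. Read numbers are unknown, and counting error was therefore not computed. The values were used as deposited, and 26 symbols turned into dates and 3 repeated symbols were left as they were. Groups follow the labels.

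Genes averaging 1 RPKM or more over all libraries were tested on log2(RPKM + 1) with limma 3.58.1 in R 4.3.3, in 1 fit of 18 libraries with 8 contrasts and a variance trend. A fold change on this scale understates the change of low genes. P-values are two-sided and Benjamini-Hochberg adjusted over all 10204 genes, and a gene was called below 0.05. The test of the study, DEGseq, was not used because it takes no account of replicates. Positions are from GENCODE M21 (GRCm38) and sequences from RefSeq, read with Python 3.11.15. The script was tested on simulated data. Named are all members, of the wider list 3 called genes per direction and comparison by adjusted p, and per member the 2 most correlated genes. A few genes that the rule names are not reported here. PPAR alpha targets named, and marker genes named, were chosen after their values were seen. The members and lists were chosen with earlier results of these data known.

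Alternative settings were 0.1 as the pseudocount, no filter on low values, scaling to the same median, a replicate block, only the compared groups in the fit, and leaving out each library. The counts for the gene lists without Con replicate 3, Con-FMT replicate 3 or HS replicate 2 were added after seeing the data. So were the group means without Con replicate 3 or Con-FMT replicate 3 and the orders without HS replicate 2. Marker lists covered hepatocytes, macrophages, endothelium, adipocytes, enterocytes and pancreatic acinar cells. Stellate and blood markers were also summed.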

Additional observations from a re-analysis of the deposited data

How the results depend on the processing

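Counts of genes called depended on the setting, and counts of members called did so in some comparisons. The 7 calls of the 4 groups with the diet and STZ against the others, Cd36 and Slc27a2 in HS against Con, and Lpl in both transplanted groups against HS held under every alternative. With the library medians set equal, 884 genes in place of 1809 and 3 members were called in HS against Con, 1155 in place of 2358 genes in A10-FMT against HS, and 4 members in HS+A10 against HS. Fitting only the groups compared gave 566, 814, 798, 685 and 57 genes, and 2, 1, 1, 0 and 0 members, for HS against Con, A10-FMT against HS, Con-FMT against HS, A10-FMT against Con-FMT and HS+A10 against HS, 38 genes for A10 against Con and 4 for the difference of the AOS effects. This fit has fewer libraries to estimate the spread, and it does not share the spread of the groups left out. Spreads differed between groups, with an SD of Slc27a2 of 4.72 RPKM in A10 and 162 RPKM in HS. The part of each in the lower counts was not tested. Without the filter 4 members were called in HS against Con, 0 in A10-FMT against Con-FMT and 1 in HS+A10 against HS, with 18 genes in A10 against Con and 2 for the difference of the AOS effects. A pseudocount of 0.1 left 1 member in HS+A10 against HS and 4 genes for that difference, and added Vldlr in A10-FMT against Con-FMT (0.98, adjusted p = 0.0366).

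Equal medians turned the sign of 7 changes that were not called. In A10-FMT against HS, Fabp2 became 0.16 and Dbi 0.17, and in Con-FMT against HS, Slc27a2 became 0.00035 and Fabp2 0.050. Slc27a4 became -0.018 in A10 against Con, 0.0078 in the difference of the AOS effects and -0.039 in the comparison by diet and STZ. The cause was not tested.

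With 1 library left out at a time, HS against Con gave between 845 (without Con replicate 1) and 1597 genes and between 2 and 6 members. A10-FMT against HS gave 1295 (without A10-FMT replicate 3) to 2584 genes and 2 to 4 members. A10-FMT against Con-FMT gave 1176 (without A10-FMT replicate 2) to 1638 genes and 0 to 1 member. HS+A10 against HS gave 159 (without HS+A10 replicate 1) to 1239 genes (without HS replicate 1) and 0 to 5 members. A10 against Con gave 0 to 73 genes (without Con replicate 2), and the difference of the AOS effects 0 to 118 (without HS replicate 1). Signs turned only for changes that were not called. These were Slc27a2 (-0.14 to 0.26), Fabp2 (-0.33 to 0.49) and Dbi (-0.19 to 0.071) in A10-FMT against HS, Slc27a2 (-0.30 to 0.11), Fabp1 (-0.096 to 0.44) and Fabp2 (-0.36 to 0.46) in Con-FMT against HS, and Cd36 (-0.57 to 0.11), Slc27a2 (-0.023 to 0.25) and Fabp2 (-0.12 to 0.15) in A10-FMT against Con-FMT. The others were Slc27a4 in HS+A10 against HS (-0.12 to 0.0012), Lpl in A10 against Con (-0.16 to 0.014), Slc27a2 in the difference of the AOS effects (-0.057 to 0.35), and Slc27a4 (-0.0043 to 0.027) and Fabp1 (-0.11 to 0.074) by diet and STZ.

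In the 6 pairs of groups compared, libraries with the same replicate number had correlations of their deviations between -0.093 and 0.26. In no pair were all 3 above 0.1. For replicates 1, 2 and 3 they were 0.227, -0.026 and 0.262 in HS and HS+A10, and 0.164, -0.093 and 0.213 in HS and A10-FMT. Whether some replicate numbers stand for a shared batch cannot be decided from these values. With the replicate block 1 member in place of 2 was called in A10-FMT against Con-FMT, where Slc27a1 had a log2 change of 0.34 (adjusted p = 0.0625), and no other call of a member changed. The read numbers behind the RPKM are unknown, which limits what can be said of Vldlr and Slc27a1, the lowest members.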
